A study of Mus musculus with 16 samples.

Results

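The melanocyte genes described here are Pmel, Dct, Tyr, Tyrp1, Mlana, Mitf, Kit, Sox10, Slc45a2 and Oca2, 10 of the 24981 genes measured. They were taken by name as established genes of the pigment cell lineage, and all 10 are in both tables of the series. RNA was sequenced from the epidermis of newborn mice (postnatal days 0 to 2), split on a Percoll density gradient into a basal and a suprabasal fraction. The Fvb/N strain, wild type for Dlx3, gave 4 basal and 4 suprabasal libraries. Mice on a mix of CD-1 and C57BL/6 gave 2 libraries for each combination of fraction and Dlx3 genotype, wild type (WT) or knockout (KO). The promoter or cell type in which Dlx3 was deleted, and whether animals were pooled, are not given in the sources used here. Nothing says that the libraries of a group came from separate animals, so p-values measure only the spread between them, which may be technical.

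Melanocytes are neural crest cells that enter the epidermis before birth, sit among the basal keratinocytes and move into the hair follicles, where they pass melanin to keratinocytes. Sox10 and Mitf are the transcription factors that hold the lineage, and Kit is the receptor through which keratinocyte stem cell factor (Kitl) keeps melanocytes alive and migrating. Tyr starts melanin synthesis, Dct and Tyrp1 act on later intermediates, Pmel forms the fibrils on which melanin is laid down, Mlana is a melanosome membrane protein needed for Pmel processing, and Slc45a2 and Oca2 are melanosome membrane transporters. Fvb/N and CD-1 mice are albino and C57BL/6 mice are black, as background. The coat colour of the newborns used is not given in the sources used here.

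The 3 melanin enzymes share a promoter motif, which is shown because Dct and Tyrp1 were called lower in Fvb/N suprabasal libraries and Tyr was not. TCATGTG is the core of the M-box, a site known to bind Mitf. It was searched in either orientation (TCATGTG or CACATGA, which do not overlap in these windows) from 250 bases before to 50 bases after the start of each RefSeq gene. Of the 10 genes, 6 have such a window, and Dct, Tyr and Tyrp1 hold the motif. It is in 1239 of 32851 windows of the same length, or 3.77%. The windows come from RefSeq on build GRCm38.p6, with the motif in capitals and the rest in lower case, written 5′ to 3′ in the direction of transcription:
Dct (chr14:118052197-118052496, minus strand): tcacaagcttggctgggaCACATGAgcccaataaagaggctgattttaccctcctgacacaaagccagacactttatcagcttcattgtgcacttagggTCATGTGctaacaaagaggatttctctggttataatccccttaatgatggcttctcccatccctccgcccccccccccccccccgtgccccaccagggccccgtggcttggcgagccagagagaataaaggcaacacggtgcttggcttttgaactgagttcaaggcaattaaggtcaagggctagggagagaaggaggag
Tyr (chr7:87493463-87493762, minus strand): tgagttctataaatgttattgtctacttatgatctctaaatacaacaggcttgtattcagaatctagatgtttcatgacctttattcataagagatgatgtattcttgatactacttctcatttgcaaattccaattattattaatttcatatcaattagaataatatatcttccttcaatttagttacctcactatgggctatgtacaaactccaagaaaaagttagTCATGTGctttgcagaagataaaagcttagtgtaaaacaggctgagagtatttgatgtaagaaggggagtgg
Tyrp1 (chr4:80833963-80834262, plus strand): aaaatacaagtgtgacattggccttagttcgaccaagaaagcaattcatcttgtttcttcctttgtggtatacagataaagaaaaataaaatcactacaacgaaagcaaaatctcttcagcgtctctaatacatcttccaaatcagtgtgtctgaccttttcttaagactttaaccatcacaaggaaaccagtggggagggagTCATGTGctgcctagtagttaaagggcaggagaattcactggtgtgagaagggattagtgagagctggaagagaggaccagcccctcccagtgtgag
Counted from the start site, the motif begins at -22 in Tyr and at -47 in Tyrp1. Dct holds the complementary letters at -232 and the motif itself at -151. A match is a description of the letters and not evidence of a bound site. On build GRCm38 (GENCODE M21) the genes themselves lie at chr10:128704195-128720238 for Pmel, chr14:118012790-118052244 for Dct, chr7:87424771-87493512 for Tyr and chr4:80834123-80851719 for Tyrp1. Mlana is at chr19:29697824-29708634, Mitf at chr6:97807052-98021349, Kit at chr5:75574916-75656722 and Sox10 at chr15:79154908-79165240. Slc45a2 is at chr15:11000721-11029233 and Oca2 at chr7:56239760-56536518. Exons of the other 9 genes overlap no other gene's exons, whereas those of Pmel do.

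Levels are RPKM, reads scaled for gene length and library size, as the authors deposited them. The 2 tables were normalized apart, so levels were compared within a table only. RPKM is relative to the rest of the library, and in bulk RNA fewer melanocytes and less RNA per melanocyte cannot be told apart. The estimated depth was 45.7 to 61.9 M reads for the Fvb/N libraries and 33.8 to 42.2 M reads for the others. Dlx3 itself, the check of the genotype labels, was at 11.2 and 11.01 RPKM in the WT basal pair, against 2.35 and 2.16 RPKM in the KO basal pair. The WT suprabasal pair held 7.87 and 6.92 RPKM, against 2.64 and 2.24 RPKM for KO. The fractions carried their labelled markers in Fvb/N, in WT and in KO. All 10 basal keratinocyte genes listed were called lower in suprabasal libraries, and all 10 suprabasal ones higher. Of all genes tested, 60.6, 70.4 and 69.7% were lower and 13.4, 19.2 and 19.9% higher, in that order. The lists were chosen with earlier results of these data known, so this is a description and not an independent check. Comparisons within a table share libraries. Where the libraries of 2 groups do not overlap, the share of all genes separated in that way was not counted, so this is a description. In Fvb/N the labels tie replicates 1 and 2 to an earlier sequencing run and the other replicates to a later one, whereas the table's own sample sheet splits the codes by fraction. If the sheet is right, run and fraction cannot be told apart.

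Fvb/N suprabasal libraries held far less melanocyte RNA than basal libraries, in 8 of the 9 genes tested. The 10 genes together came to 99.4 to 174 RPKM in the 4 basal libraries and to 14.2 to 33.2 RPKM in the 4 suprabasal libraries. Dct and Pmel made up most of it in the basal fraction, at 62.7 ± 18.5 and 40.4 ± 9.48 RPKM (SD, n = 4). The next 5 genes, Sox10, Mlana, Kit, Tyrp1 and Tyr, had basal means between 5.55 and 6.66 RPKM, and differences among them were not tested. Mitf at 2.97, Slc45a2 at 1.76 and Oca2 at 0.228 RPKM were the lowest. In the suprabasal fraction Tyr, at 4.35 ± 1.73 RPKM, stood second by mean, between Dct at 6.82 ± 4.94 and Pmel at 4.197 ± 2.35. No single library showed that order: Tyr lay above both in suprabasal replicates 1 and 2 and below both in replicates 3 and 4. Dct lay above Pmel in every suprabasal library, and differences among these 3 genes were not tested.

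**Figure D1:**
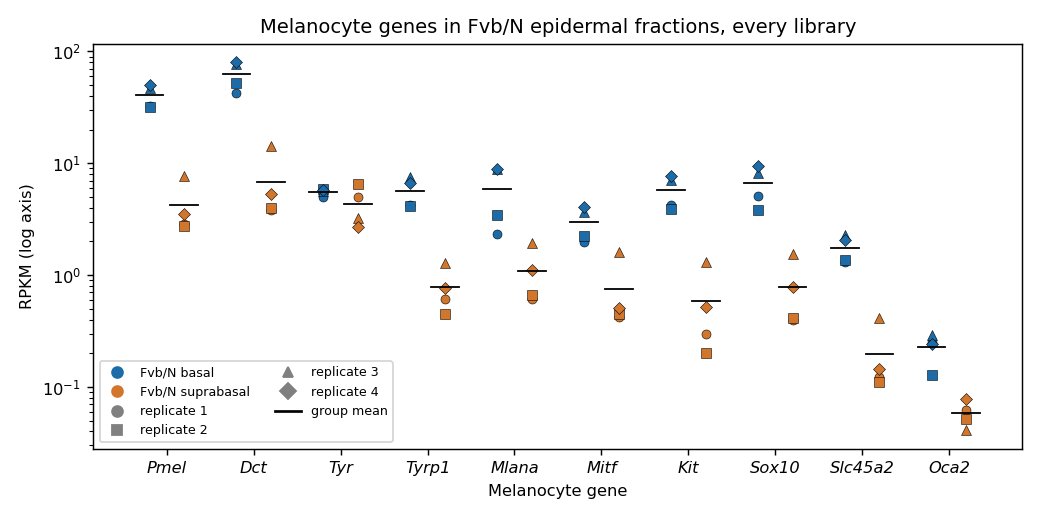
RPKM (log axis) of each melanocyte gene in the 4 basal and 4 suprabasal Fvb/N libraries, with 1 symbol per replicate and a line at the group mean. For every gene except Tyr all suprabasal libraries lie below all basal libraries, and suprabasal replicate 3 is the highest of the suprabasal libraries for 8 of the 10 genes. The share of all genes separated in this way was not counted, and 60.6% of all genes tested were called lower.

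In order of replicate, the 4 basal libraries held 32.8, 31.7, 47.5 and 49.7 RPKM of the fibril protein gene Pmel, and the 4 suprabasal libraries held 2.88, 2.72, 7.68 and 3.51 RPKM. The lowest basal library lay well above the highest suprabasal library. Its log2 fold change was -3.06 (SE 0.281, limma adjusted p = 6.02e-05), lower in 4 of 4 suprabasal libraries. Some exons of Pmel on chromosome 10 overlap exons of Cdk2 and Dgka, so part of its reads could belong to those genes.

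Dct, the dopachrome tautomerase, was at 42.2, 52.1, 77.0 and 79.8 RPKM in the basal and at 3.79, 3.999, 14.2 and 5.32 RPKM in the suprabasal libraries. It fell by 3.15 on the log2 scale (SE 0.371, limma adjusted p = 0.000116). Tyrp1, the second tyrosinase-related enzyme, was at 4.26, 4.17, 7.60 and 6.68 RPKM against 0.612, 0.449, 1.28 and 0.768 RPKM. Its groups did not overlap either, and it fell by 1.89 (SE 0.211, limma adjusted p = 9.44e-05).

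Tyr was at 5.03, 5.86, 5.60 and 5.72 RPKM in the basal libraries and at 4.98, 6.50, 3.24 and 2.68 RPKM in the suprabasal libraries. The groups overlap: suprabasal replicate 2 was the highest of all 8 libraries and replicates 3 and 4 were the lowest. The log2 fold change was -0.35 (95% interval -0.83 to 0.13, limma adjusted p = 0.167), and 0.20 after rescaling the libraries by their median ratio. With the runs as labelled it was 0.06 (adjusted p = 0.676) in replicates 1 and 2 and -0.75 (adjusted p = 0.0239) in replicates 3 and 4, and it was called lower without suprabasal replicate 2 (-0.53, adjusted p = 0.0288). These levels rest on an estimated 1003 to 2147 reads per library.

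Among the lineage regulators, Sox10 was at 5.11, 3.85, 8.18 and 9.52 RPKM in the basal and at 0.399, 0.415, 1.53 and 0.780 RPKM in the suprabasal libraries. Kit was at 4.22, 3.93, 7.10 and 7.75 RPKM in the basal and at 0.301, 0.200, 1.31 and 0.517 RPKM in the suprabasal libraries. Both fell, with log2 fold changes of -2.08 for Sox10 (SE 0.280, limma adjusted p = 0.000198) and -2.096 for Kit (SE 0.258, limma adjusted p = 0.000137). Mitf, the lowest of the 3 in the basal fraction, was at 1.97, 2.22, 3.63 and 4.04 RPKM there and at 0.426, 0.453, 1.61 and 0.511 RPKM in the suprabasal libraries, a log2 fold change of -1.19 (SE 0.245, limma adjusted p = 0.00187).

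The melanosome genes Mlana and Slc45a2 followed the same pattern at lower levels. Mlana lay between 2.31 and 8.92 RPKM in basal and between 0.610 and 1.95 RPKM in suprabasal libraries, and it fell by 1.602 (SE 0.376, limma adjusted p = 0.00385). Slc45a2 lay between 1.32 and 2.30 RPKM in basal and between 0.110 and 0.411 RPKM in suprabasal libraries, and it fell by 1.20 (SE 0.149, limma adjusted p = 0.000144). Oca2, with at most 0.289 RPKM or an estimated 48 reads in any library, did not pass the filter of 1 RPKM in 4 libraries. It was at 0.129 to 0.289 RPKM in basal and 0.0409 to 0.0773 RPKM in suprabasal libraries, without overlap, and a fit of all genes without the filter gave -0.21 (limma adjusted p = 0.00330).

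In all, 8 of the 9 genes tested in Fvb/N were called lower, where 60.6% of all genes tested were lower and 13.4% higher (73.9% in either direction), with a median change of all genes of -0.55. The median of the 9 was -1.89. Of the 9, 6 passed the filter only through the basal libraries, where they are high, so the count and the median are given as a description. After rescaling the libraries by their median ratio 3450 genes were higher and 4088 lower, in place of 1554 and 7030 (3621 and 3962 after quantile normalization), and the same 8 melanocyte genes were called lower, from -0.84 for Mitf to -2.56 for Dct. Without suprabasal replicates 3 and 4 the 8 genes had log2 fold changes from -1.29 for Slc45a2 to -3.65 for Dct.

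What stayed in the suprabasal fraction differed between its libraries. Taken as a percentage of the basal mean of each gene, the median of the 9 melanocyte genes was 7.11, 6.73, 23.0 and 11.7% in suprabasal libraries 1 to 4. The median of the 10 basal keratinocyte genes was 2.14, 2.03, 21.5 and 4.84%, and that of the 12 Langerhans cell genes was 5.20, 4.71, 31.7 and 5.22%. Library 3 was the highest for these 3 lists. The median of 5 fibroblast genes was 56.3, 50.7, 168 and 340%, with library 4 the highest, but these genes went in opposite directions. Dcn, with a basal mean of 67.4 RPKM, was at 4.42, 3.88, 22.85 and 14.07%, highest in library 3. Col1a1, with a basal mean of 1.33 RPKM, was at 426, 340, 849 and 2689%. Within the melanocyte list Kit was at 5.23, 3.48, 22.7 and 9.0% and Mitf at 14.4, 15.3, 54.4 and 17.2%, whereas Tyr was at 89.8, 117, 58.4 and 48.3%. The part of basal cell RNA in these values was not tested.

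**Figure D2:**
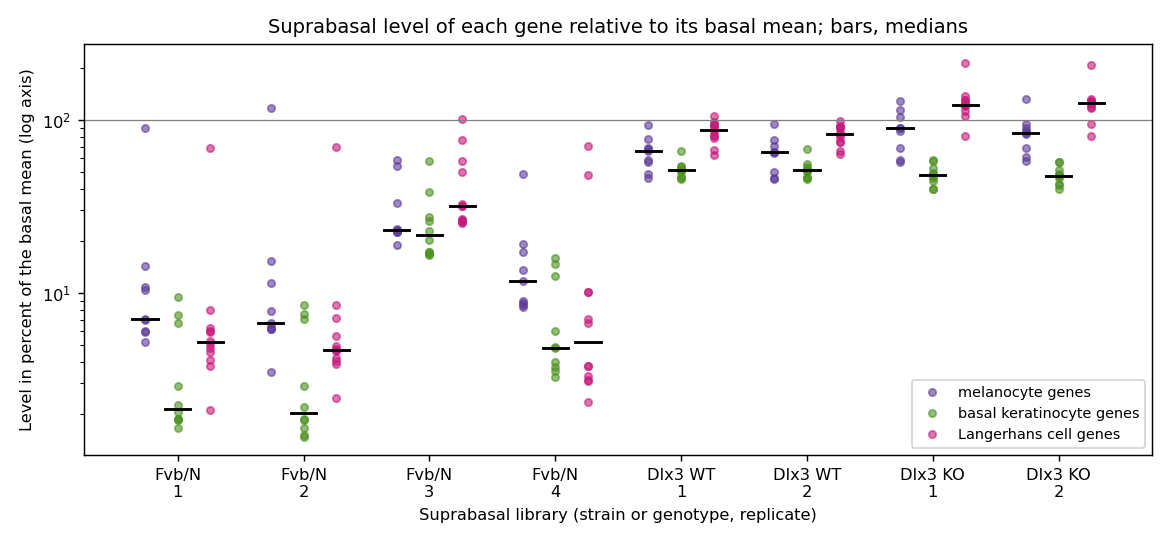
Level of each gene in each suprabasal library as a percentage of its basal mean in the same strain or genotype (log axis), for 9 melanocyte genes (without Oca2), 10 basal keratinocyte genes and 12 Langerhans cell genes, with bars at the medians. The melanocyte medians are 6.73 to 23.0% in Fvb/N, 66.3 and 65.3% in Dlx3 WT and 89.5 and 84.2% in Dlx3 KO, and the highest melanocyte point is Tyr in each Fvb/N library and Tyrp1 in each Dlx3 library.

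The promoter windows of Tyr, Dct and Tyrp1 printed above all hold the M-box core, and whether Tyr changed differently from the other two was not tested. Levels of the genes next to Tyr on chromosome 7 were low in the suprabasal fraction. Nox4 was at 0.925 to 1.996 RPKM in basal and 0.0503 to 0.374 RPKM in suprabasal libraries, and Grm5 was at most 0.0172 RPKM in any Fvb/N library. In the authors' deposited table the suprabasal to basal ratio of Tyr was 0.745 (q = 0.0660), against 0.0977 for Dct (q = 0.000985) and 0.148 for Tyrp1 (q = 0.000800).

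In the Dlx3 table the fractions are compared within each genotype. The 10 genes summed to 113 and 113.5 RPKM in WT basal and to 71.2 and 71.8 RPKM in WT suprabasal libraries. In KO they summed to 124.5 and 127 RPKM in basal and to 107 and 107.5 RPKM in suprabasal libraries. The order by mean was alike in all 4 groups, led by Dct and then Pmel, Kit, Sox10 and Mlana, and with Slc45a2 and Oca2 last. In WT basal libraries Kit, at 13.8 and 13.2 RPKM, and Sox10, at 10.3 and 10.3 RPKM, stood clear of the next genes. Those were Mlana at 5.03 and 3.96, Tyr at 3.36 and 3.55 and Mitf at 3.49 and 3.20 RPKM. Differences between genes were not tested.

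**Figure D3:**
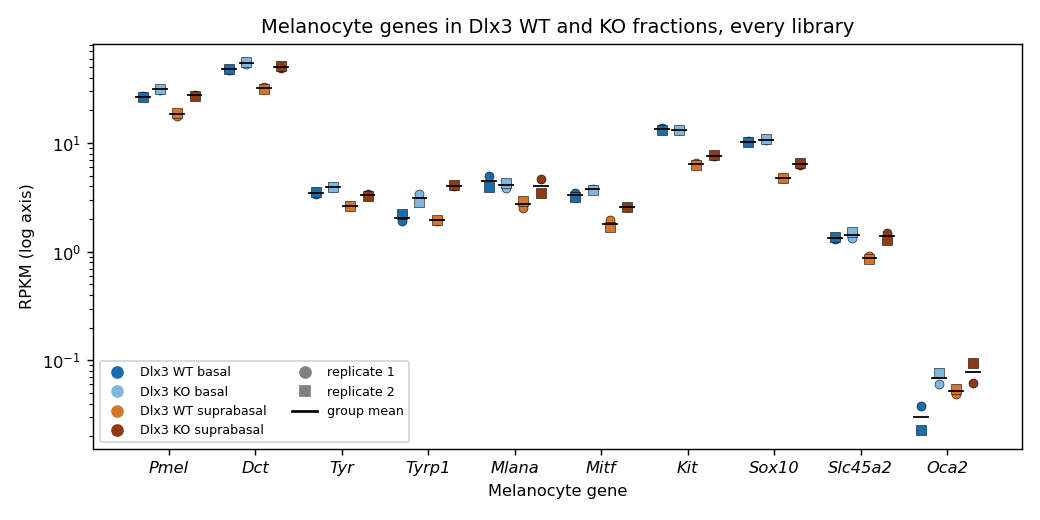
RPKM (log axis) of each melanocyte gene in the 8 libraries of the Dlx3 table, with 1 symbol per replicate and a line at the mean of each group of 2. In the suprabasal fraction both KO libraries lie above both WT libraries for all 10 genes, of which Oca2 rests on an estimated 6 to 10 reads. The share of all genes separated in this way was not counted. Kit and Sox10 lie lower in both suprabasal groups than in both basal groups.

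In WT, Kit fell from 13.8 and 13.2 RPKM in basal to 6.55 and 6.23 RPKM in suprabasal libraries, a log2 fold change of -0.98 (SE 0.0369, n = 2 per group, limma adjusted p = 8.58e-09). Sox10 fell from 10.3 and 10.3 to 4.78 and 4.73 RPKM, a change of -0.98 (SE 0.0358, limma adjusted p = 7.07e-09). Mitf fell from 3.49 and 3.20 to 1.95 and 1.68 RPKM, a change of -0.63 (limma adjusted p = 5.69e-06). For these 3 regulators the suprabasal libraries all lay below the basal libraries.

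Of the pigment genes, 5 of 6 fell in WT. Dct went from 47.3 and 48.2 to 32.7 and 31.2 RPKM, a log2 fold change of -0.57 (limma adjusted p = 2.38e-07). Pmel went from 26.9 and 26.7 to 17.8 and 18.9 RPKM, a change of -0.52 (limma adjusted p = 3.19e-07). Mlana (-0.55, adjusted p = 0.00206), Slc45a2 (-0.31, adjusted p = 0.00150) and Tyr (-0.29, adjusted p = 0.000235) fell in the same limma fit. The basal pair had Tyrp1 at 1.91 and 2.21 RPKM and the suprabasal pair at 1.93 and 1.95 RPKM, and its change of -0.05 (95% interval -0.21 to 0.11) was not called.

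So 8 of 9 genes tested were called lower in WT suprabasal libraries, where 70.4% of all genes tested were lower and 19.2% higher (89.6% in either direction), with a median of -0.40. The median of the 9 was -0.55. After median-ratio rescaling, which gave 4550 genes higher and 5189 lower in place of 2336 and 8545 (3739 and 6380 after quantile normalization), 5 of the 9 were called lower (Kit, Sox10, Mitf, Dct and Pmel), Tyrp1 turned higher (0.24, adjusted p = 0.0105) and Tyr turned positive (0.04) without a call. Oca2 rested on an estimated 3 to 10 reads in each library of this table and was not tested.

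In KO the regulators also fell from basal to suprabasal, and the pigment genes changed by 0.30 or less in either direction. Kit went from 13.3 and 13.3 to 7.60 and 7.68 RPKM, a change of -0.73 (SE 0.0369, limma adjusted p = 6.27e-08). Sox10 went from 10.6 and 10.8 to 6.24 and 6.50 RPKM, a change of -0.67 (SE 0.0358, limma adjusted p = 9.27e-08), and Mitf fell by 0.41 (adjusted p = 0.000123). Each of the 3 was lower in both suprabasal than in both basal libraries, and for Kit and Sox10 this held after either rescaling.

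Dct was at 53.4 and 55.3 RPKM in KO basal and 48.9 and 51.6 RPKM in KO suprabasal libraries. Its log2 fold change of -0.11 (limma adjusted p = 0.0141) was not called without KO basal replicate 2 (-0.08, adjusted p = 0.0926) or without KO suprabasal replicate 1 (-0.07, adjusted p = 0.112), and it turned to 0.31 after median-ratio rescaling. Pmel was at 30.9 and 31.4 RPKM against 27.9 and 27.0 RPKM, a change of -0.18 (adjusted p = 0.000710) that turned to 0.23 after that rescaling, and the change of Tyr, -0.19 (adjusted p = 0.00360), turned to 0.15. Tyrp1 ran the other way: it was at 3.37 and 2.87 RPKM in basal and 4.01 and 4.09 RPKM in suprabasal libraries, a rise of 0.30 (SE 0.0701, limma adjusted p = 0.00287) that kept its sign after either rescaling.

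The KO fractions thus gave 6 genes lower and 1 higher of 9 tested, where 69.7% of all genes tested were lower and 19.9% higher (89.6% in either direction), with a median of -0.39. After median-ratio rescaling (4519 genes higher and 5193 lower, in place of 2416 and 8467, or 3569 and 6529 after quantile normalization) 6 of the 9 were called higher and 2 lower, so the direction of the pigment genes in KO depends on the scaling. Mlana and Slc45a2, both at -0.02, were not called. As a percentage of the basal mean, the 9 genes had medians of 66.3 and 65.3% in WT and of 89.5 and 84.2% in KO suprabasal libraries. The basal keratinocyte genes had medians of 51.2 and 51.2% in WT and of 48.0 and 47.6% in KO. The Langerhans cell genes had medians of 87.1 and 83.2% in WT and of 122 and 125.5% in KO, and further melanocyte genes had medians of 50.2 and 57.0% in WT and of 64.2 and 64.8% in KO.

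Comparing KO with WT asks whether loss of Dlx3 changed melanocyte RNA in a fraction. In suprabasal libraries it was higher in KO for every gene tested. The WT suprabasal pair had Tyrp1 at 1.93 and 1.95 RPKM, and the KO pair at 4.01 and 4.09 RPKM. Its log2 fold change of 0.78 (SE 0.0701, n = 2 per group, limma adjusted p = 8.81e-05) was the largest of the 9 in the fit.

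Dct rose from 32.7 and 31.2 RPKM in WT to 48.9 and 51.6 RPKM in KO suprabasal libraries, by 0.64 (SE 0.0349, limma adjusted p = 6.16e-06). Pmel rose from 17.8 and 18.9 to 27.9 and 27.0 RPKM, by 0.56 (SE 0.0337, limma adjusted p = 1.13e-05). For both genes the lower KO suprabasal library lay close to the higher WT basal library. The values were 48.9 and 48.2 RPKM for Dct and 26.96 and 26.88 RPKM for Pmel. KO suprabasal was not tested against WT basal.

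The other 6 rose by 0.23 to 0.43 on the log2(RPKM + 1) scale, which understates the change of low genes. Sox10 went from 4.78 and 4.73 RPKM in WT to 6.24 and 6.50 RPKM in KO, a rise of 0.36 (limma adjusted p = 0.000152). Kit rose from 6.55 and 6.23 to 7.60 and 7.68 RPKM, by 0.23 (limma adjusted p = 0.00181), the smallest rise. Mitf (0.34, adjusted p = 0.00257), Slc45a2 (0.34, adjusted p = 0.00426) and Tyr (0.25, adjusted p = 0.00331) also rose in the limma fit.

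The WT suprabasal pair had Mlana at 2.55 and 2.93 RPKM and the KO pair at 4.67 and 3.45 RPKM, a rise of 0.43 (SE 0.123, limma adjusted p = 0.0248). It was not called without KO suprabasal replicate 1 (0.25, adjusted p = 0.154), without WT suprabasal replicate 1 (0.35, adjusted p = 0.120) or without the filter (adjusted p = 0.117).

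All 9 genes tested were thus called higher in KO suprabasal libraries, where 21.6% of all genes tested were higher and 15.7% lower (37.3% in either direction), with a median of 0.01. Over all genes the split was 2620 higher and 1911 lower, or 2907 and 1815 after median-ratio rescaling and 1913 and 2350 after quantile normalization, and the 9 kept their sign and call under both. The median of the 9 was 0.36. KO to WT ratios for suprabasal cells in the authors' deposited table were 2.03 for Tyrp1 (q = 0.00949), 1.57 for Dct (q = 0.00416), 1.51 for Slc45a2 (q = 0.0203), 1.49 for Pmel (q = 0.00416) and 1.45 for Mlana (q = 0.109).

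Genes of other cell types moved in the same comparison. Of 12 Langerhans cell genes 11 were higher in KO suprabasal libraries (median 0.49), and their sum was 256 to 258 RPKM in WT and 357.5 to 359 RPKM in KO. Of 9 fibroblast genes 6 were tested and 5 were higher (median 0.50), with sums of 83.8 to 86.1 RPKM in WT and 106.5 to 107 RPKM in KO. Of 10 basal keratinocyte genes 2 were higher and 6 lower (median -0.11), and of 10 suprabasal keratinocyte genes 9 were higher (median 0.23). Of 10 hair follicle genes, Dlx3 among them, 3 were higher and 6 lower (median -0.49). Of 7 Merkel cell genes tested 1 was higher and 3 lower. Of 3 T cell genes tested 1 was higher, and of 3 red cell genes tested 0 were called. Of all genes tested, 21.6% were higher and 15.7% lower. The part of these cells in the rise of the melanocyte genes was not tested.

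**Figure D4:**
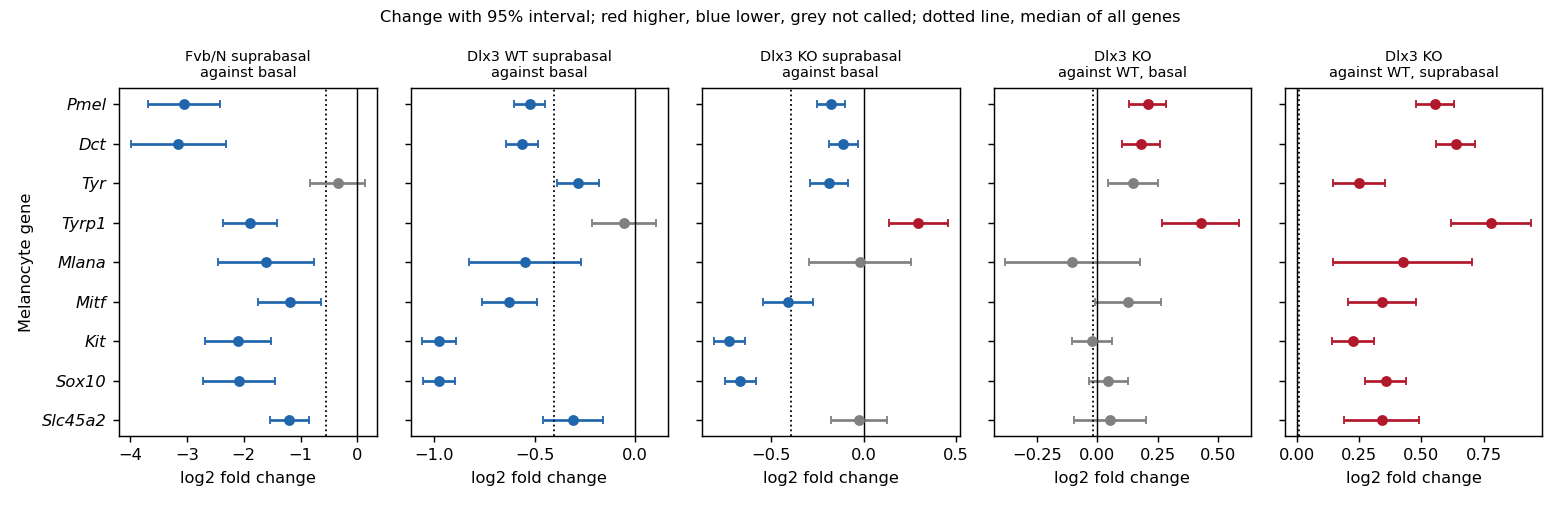
Log2 fold change of log2(RPKM + 1) with its 95% interval for the 9 melanocyte genes tested, in each of 5 comparisons with its own axis; a dotted line marks the median of all genes tested. All 9 intervals lie above 0 for KO against WT in suprabasal libraries, from 0.23 for Kit to 0.78 for Tyrp1, and 3 are called higher in basal libraries.

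In basal libraries 3 genes of melanin synthesis and melanosome fibrils were higher in KO. Tyrp1 went from 1.91 and 2.21 RPKM in WT to 3.37 and 2.87 RPKM in KO, a rise of 0.43 (SE 0.0701, limma adjusted p = 0.00661). Pmel rose from 26.9 and 26.7 to 30.9 and 31.4 RPKM, by 0.21 (SE 0.0337, limma adjusted p = 0.00600). Dct rose from 47.3 and 48.2 to 53.4 and 55.3 RPKM, by 0.18 (SE 0.0349, limma adjusted p = 0.0146). For these 3 both KO libraries lay above both WT libraries.

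These were 3 of 9 genes tested, with 0 lower, where 4.23% of all genes tested were higher and 2.98% lower (7.21% in either direction), with a median of -0.02. Genes higher and lower numbered 514 and 362, or 587 and 213 after median-ratio rescaling and 548 and 240 after quantile normalization. The 876 calls fell to between 463 and 542 without any 1 of the 4 basal libraries. Without the filter only Pmel was called, and Dct was not called without KO basal replicate 2 (0.16, adjusted p = 0.0917), WT basal replicate 1 (0.17, adjusted p = 0.0869) or WT basal replicate 2 (0.20, adjusted p = 0.0559). Kit, at 13.8 and 13.2 RPKM in WT and 13.3 and 13.3 RPKM in KO, changed by -0.02 (95% interval -0.11 to 0.06), and Sox10 by 0.05 (95% interval -0.04 to 0.13). Basal KO to WT ratios in the authors' deposited table were 1.49 for Tyrp1 (q = 0.106), 1.16 for Pmel (q = 0.0928) and 1.14 for Dct (q = 0.147).

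The test of the difference itself, the interaction of genotype and fraction, asks whether KO changed these genes more in suprabasal than in basal libraries. It was called for 5 of 9 genes, all in the direction of a larger KO excess in suprabasal libraries, where 14.4% of all genes tested were called in that direction and 8.08% in the other (22.5% in all). Dct had a difference of 0.46 (SE 0.0494, limma adjusted p = 0.000630), Pmel 0.35 (adjusted p = 0.00200), Sox10 0.31 (adjusted p = 0.00423) and Kit 0.25 (adjusted p = 0.0113). Tyrp1, at 0.35 (adjusted p = 0.0353), was not called without the filter (adjusted p = 0.114) or when any of 6 libraries was left out (0.26 to 0.36, adjusted p 0.0748 to 0.114). Those were KO basal replicate 2, WT basal replicate 2 and all 4 suprabasal libraries.

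Mlana (0.53, limma adjusted p = 0.0582), Slc45a2 (0.29, adjusted p = 0.0570), Mitf (0.22, adjusted p = 0.0994) and Tyr (0.10, adjusted p = 0.297) were not called in the interaction. Mlana was called without KO suprabasal replicate 2 (0.70, adjusted p = 0.0219) or WT basal replicate 2 (0.67, adjusted p = 0.0397), and Slc45a2 without KO suprabasal replicate 2 (0.35, adjusted p = 0.0492). The all-gene split was 1755 and 982, or 1028 and 1372 after quantile normalization. The 2737 calls fell to 1673 without KO basal replicate 1, 1591 without WT basal replicate 2 and 1786 without WT suprabasal replicate 1. Langerhans cell genes (10 of 12) and fibroblast genes (6 of 6 tested) were called in the same direction, against 14.4% of all genes. Their part was not tested.

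Kit is also a gene of mast cells, and Sox10 of Schwann cells. Of 10 mast cell genes none reached a mean of 1 RPKM in any group. Their sum was 0.202 to 1.87 RPKM in Fvb/N suprabasal, 0.213 to 0.404 in Fvb/N basal and 0.0939 to 0.333 in the Dlx3 table, and Fcer1a, a chain of the mast cell IgE receptor, was at 0 in all 16 libraries. Of 12 Schwann and glial genes, 5 were tested in Fvb/N, with 3 lower and 1 higher, near the 60.6 and 13.4% of all genes. In suprabasal KO against WT 7 were tested, with 2 higher, where 21.6% of all genes tested were higher. Those 2 rose by 0.08 for Erbb3 and 0.07 for Pou3f1, genes that keratinocytes also express. The Schwann and glial sum was 151 to 152 RPKM in WT and 160 to 160.4 RPKM in KO suprabasal libraries, mostly Pou3f1 and Erbb3.

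Of 15 further melanocyte genes, 11 were tested in Fvb/N, with 7 lower and 2 higher in suprabasal libraries (median -1.20), a share of lower calls near the 60.6% of all genes. Gpnmb, a relative of Pmel (-2.28), the melanosome exchanger Slc24a5 (-2.17) and the channels Trpm1 (-1.93) and Mcoln3 (-1.86) fell most among those at 1 RPKM or more. The 2 higher were Rab38 (0.95, limma adjusted p = 0.0022), with a basal mean of 24.4 RPKM, and Syngr1 (0.56, limma adjusted p = 0.0015). The 15 genes summed to 54.65 to 77.8 RPKM in basal and to 49.6 to 71.5 RPKM in suprabasal Fvb/N libraries. These sums hold Rab38, which was at 231, 261, 135 and 179% of its basal mean in suprabasal libraries 1 to 4. The median of 13 of the genes was 9.85, 12.4, 27.1 and 22.3% of the basal mean in the same libraries. In WT 12 of 13 tested were lower and 1 higher (median -0.65), where 70.4% of all genes were lower. In KO 10 were lower and 1 higher (median -0.54), near the 69.7% of all genes. In KO against WT, 8 of 13 were higher and 1 lower in suprabasal libraries (median 0.25), where 21.6% of all genes were higher, and 0 of 13 were called in basal libraries (median 0.09). Slc24a5 rose by 0.41 (adjusted p = 0.00328), the melanocortin receptor Mc1r by 0.38 (adjusted p = 0.000431) and Gpnmb by 0.38 (adjusted p = 0.000136) in the suprabasal limma fit, and the interaction of Gpnmb was 0.27 (adjusted p = 0.00815).

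The general machinery of melanosome building and transport, which other cells use too, is the next list. Of 28 such genes 26 were tested in Fvb/N, with 13 lower and 2 higher (median -0.35), where 60.6% of all genes were lower and their median was -0.55. The 4 that fell most were the motor Myo5a (-1.56), the Hermansky-Pudlak genes Hps3 (-1.23) and Hps5 (-1.01), and the melanosome GTPase Rab32 (-1.03). Rab32, with a suprabasal mean of 0.494 RPKM, passed the filter with the help of the basal libraries. In WT 19 of 27 were lower and 6 higher, near the 70.4 and 19.2% of all genes, and in KO 13 were lower and 5 higher, where 69.7% of all genes were lower. In KO against WT 0 of 27 were called in basal libraries, and 8 were higher and 1 lower in suprabasal libraries (median 0.09), where 21.6% of all genes were higher. The largest of those rises, of Lyst, was 0.29 (limma adjusted p = 0.00665).

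Signals that act on melanocytes, many of them made by keratinocytes, were the last list. Of 16 ligands and signals 9 were tested in Fvb/N and 8 were lower in suprabasal libraries (median -1.47), where 60.6% of all genes were lower. Among the 8 were Wnt3a (-2.87), Wnt10b (-2.82) and Kitl, the ligand of Kit (-2.25). Wnt3a and Kitl, with suprabasal means of 0.658 and 0.649 RPKM, passed the filter with the help of the basal libraries, where they are high. The count and the median are therefore a description. In WT 7 of 10 were lower and 2 higher, and in KO 8 of 10 were lower and 2 higher, near the 70.4 and 69.7% of all genes called lower. Hgf, the ligand of the receptor Met, rose in WT (1.02, adjusted p = 5.08e-07) and in KO (1.055, adjusted p = 3.99e-07), from means of 0.0314 and 0.0385 RPKM to 1.09 and 1.16 RPKM. It passed the filter only through suprabasal libraries, where it is high. Kitl also fell in WT (-1.14, adjusted p = 1.43e-08) and in KO (-0.99, adjusted p = 3.74e-08) in the limma fit. Between KO and WT, Kitl changed by -0.12 (adjusted p = 0.185) in basal and 0.02 (adjusted p = 0.709) in suprabasal libraries. In suprabasal KO against WT 2 of 10 signals were higher and 2 lower, with Bmp4 the most changed (0.32, adjusted p = 0.000729).

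Genes outside the list that followed it most closely were ranked by the smaller of their 2 Pearson correlations with the mean of the 9 genes, 1 over the 8 Fvb/N and 1 over the 8 Dlx3 libraries. Libraries of a table share their strain and normalization and fall into groups, so these are descriptions without a test. Of 11447 genes tested in both tables, a total of 11044 were ranked, leaving out the members and predicted genes with Gm or Rik symbols. The first 8 were Axl, Paqr7, Ptgds, Pald1, Mfge8, Gusb, Cspg4 and Rnf130, with smaller correlations of 0.988 down to 0.964, and Mfge8 is also on the Langerhans list. Of those ranked, 113 genes reached 0.9 in both tables. Axl, a receptor tyrosine kinase, had means of 13.2 and 4.28 RPKM in Fvb/N basal and suprabasal, and of 8.74 and 10.6 RPKM in WT and KO suprabasal libraries. Among the other lineage genes Mc1r stood at rank 21, Slc24a5 at 28, the endothelin receptor Ednrb at 38 and Gpnmb at 41. Within the list itself the correlation with the mean was lowest for Tyr in Fvb/N (0.403) and for Tyrp1 in the Dlx3 table (0.453).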

How the data were processed

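The values are RPKM that the authors deposited for each gene and library, from reads mapped to mm10 with TopHat and summarised in Partek, per the file headers. TopHat2 2.1.1 and bcl2fastq 2.20.0.422 are from the submitters' processing notes. The gene annotation, the handling of multi-mapped reads and the use of strand are not given in the sources used here. The authors' deposited comparison tables hold log2 group means of RPKM and ratio values with p-values and q-values, quoted only where named. Columns of per-sample values left unused numbered 0.

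RPKM + 1 was taken to log2, so fold changes understate the change of low genes. Genes with 1 RPKM in at least 4 (Fvb/N, 11608 genes) or 2 libraries (Dlx3 table, 12146 genes) were fitted in limma 3.58.1 with an intensity trend (R 4.3.3; 6 residual and 3.2 prior degrees of freedom in Fvb/N, 4 and 4.8 in the Dlx3 table, whose 4 groups share 1 fit). Adjusted p is Benjamini-Hochberg across every gene in the fit, with calls made below 0.05. Depth and reads per gene were estimated from the steps of low RPKM values in genes with 1 transcript of GENCODE M21, so reads are approximate and their precision covers counting error only. The variance between libraries of a group was 1.35 to 1.69 times counting noise in the Dlx3 table and 3.92 to 95.7 times in Fvb/N. The Dlx3 pairs were counted as the labels give them, and whether they are technical repeats was not tested.

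Deviations of same-numbered Fvb/N libraries of the 2 fractions from their group means had r = 0.51, 0.57, 0.56 and 0.12 across genes. The correlation between libraries of different numbers was not computed, so whether it is lower is not known. With the runs as labelled, same-numbered libraries also share a run, so pairing and run cannot be told apart here. The reported fit has no replicate block. Alternatives were pseudocounts, no filter, median-ratio rescaling, quantile normalization, no trend, a replicate block, run codes and leaving out each library. All 10 members are named in every comparison. From each other list the rule picked up to 4 called genes with the largest change and 1 RPKM in the higher group. Erbb3 and Pou3f1 are among them. Not every gene picked is named here, and genes of the Merkel cell, T cell and red cell lists appear only as counts. Nox4, Grm5, Fcer1a, Rab38, Syngr1 and the values of Kitl between genotypes were added after their values were seen. The members and lists were chosen with earlier results of these data known. Coordinates of windows are RefSeq's. Python 3.11.15, numpy 2.4.6, pandas 2.3.3, scipy 1.17.1 and matplotlib 3.10.9 were used.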

Additional observations from a re-analysis of the deposited data

Results flagged for a closer look

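Suprabasal replicate 3 of Fvb/N stood apart from the other 3 suprabasal libraries for 4 melanocyte genes, at 14.2 RPKM for Dct, 7.68 for Pmel, 1.61 for Mitf and 0.411 for Slc45a2. In 20 such groups of 4 libraries, chance flags about 1 in 20. The basal keratinocyte genes of that library were also the highest of the 4 suprabasal libraries (a median of 21.5% of their basal mean), and their part was not tested.

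The change from WT to KO differed between fractions by the interaction test, with a larger excess in suprabasal libraries, for Dct (0.46), Tyrp1 (0.35), Pmel (0.35), Sox10 (0.31) and Kit (0.25).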

How the results depend on the processing

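Of the values of single melanocyte genes under all alternatives, 828 kept their direction and call, 21 kept the direction and lost the call, 8 gained a call and 25 changed sign. For the other named genes 896 kept both and 74 lost the call. Every change of sign is given here, and the cause was not tested. In Fvb/N, Tyr went to 0.20 after median-ratio rescaling, 0.32 after quantile normalization, 0.058 in the earlier run alone and 0.034 without suprabasal replicates 3 and 4, a setting chosen after seeing the data. In WT, Tyr went to 0.045 after rescaling and Tyrp1 to 0.24 after rescaling, 0.10 after quantile normalization and 0.018 without WT basal replicate 2. In KO, rescaling and quantile normalization gave 0.23 and 0.039 for Pmel, 0.31 and 0.080 for Dct, 0.15 and 0.077 for Tyr, 0.32 and 0.25 for Mlana, and 0.22 and 0.077 for Slc45a2.

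Leaving out each library in turn gave -0.13 to 0.018 for Tyrp1 in WT, -0.19 to 0.15 for Mlana and -0.087 to 0.038 for Slc45a2 in KO, and, for KO against WT in basal libraries, -0.24 to 0.039 for Mlana and -0.051 to 0.0079 for Kit, which was 0.00096 after rescaling. Counted over both directions together, the melanocyte genes called stayed within 1.5 times under every alternative run, except that without the filter KO against WT in basal libraries gave 1 in place of 3. By direction the counts moved more: median-ratio rescaling gave 5 lower and 1 higher in place of 8 lower in WT, and 2 lower and 6 higher in place of 6 lower and 1 higher in KO, where quantile normalization gave 3 lower and 2 higher. The replicate block changed no call of a melanocyte gene (8 of 9 in Fvb/N, as without it). In the Dlx3 table same-numbered libraries share only a number (r = -0.05 to 0.06). Depth limits Oca2 in every group (3 to 48 estimated reads per library), and in Fvb/N suprabasal libraries also Slc45a2 (as few as 17) and Mlana (as few as 26).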
